A study of Homo sapiens with 6 samples.

Results

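The X-chromosome cluster of miR-424, miR-503, miR-542 and miR-450 was compared between total RNA and RNA recovered with an anti-m7G antibody. The 8 members were all rows of both count tables whose names equalled the mature miRNAs hsa-miR-424-5p, hsa-miR-424-3p, hsa-miR-503-5p, hsa-miR-503-3p, hsa-miR-542-5p, hsa-miR-542-3p, hsa-miR-450a-5p and hsa-miR-450b-5p (the prefix hsa, for human, is left out of most names below), out of 2588 mature miRNAs listed. The cells were A549, a human lung adenocarcinoma line, transduced with a lentiviral, doxycycline-inducible shRNA against METTL1, an enzyme that places N7-methylguanosine (m7G) in RNA. They were selected as a puromycin-resistant population, and which of the study's shRNAs was used is not given in the sources used here. Both groups came from knockdown cells that had been given 200 ng/ml doxycycline and were taken on day 5, with 3 libraries of total RNA and 3 of heat-denatured RNA immunoprecipitated with the antibody (m7G-RIP). Nothing in the labels says that the libraries came from separate cultures, so p-values measure the spread between these libraries, which may be technical. METTL1-proficient cells and control-antibody libraries were not analysed here, so what is compared is recovery by the antibody within knockdown cells.

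A miRNA hairpin is cut by DROSHA and DICER into a duplex of a 5p and a 3p arm, of which usually a single arm is kept as the guide that directs repression through its seed, bases 2 to 8. miR-424-5p and miR-503-5p belong to the extended miR-15/16 family, known for repressing cyclins and other drivers of the G1 phase and for promoting cell-cycle exit, for example in differentiating muscle. miR-542-3p is known to repress survivin (BIRC5), an inhibitor of apoptosis.

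The 6 hairpins lie on the minus strand of chromosome X (GRCh38, GENCODE release 44) within 6527 nt, from 134540185 to 134546711. In the direction of transcription MIR424 comes first (134546614 to 134546711) and overlaps an exon of the lncRNA MIR503HG. MIR503 follows after 215 nt (134546328 to 134546398) and lies inside MIR503HG, over an exon. A gap of 4890 nt separates this pair from MIR542 (134541341 to 134541437), MIR450A2 (134540508 to 134540607), MIR450A1 (134540341 to 134540431) and MIR450B (134540185 to 134540262). No lncRNA or protein-coding gene of the same strand was annotated over these 4. miR-450a-5p is made by both MIR450A2 and MIR450A1, so that its reads cannot be assigned to either hairpin.

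The mature sequences are shown because the seed and the G content of the members are compared below. RefSeq sequences (GRCh38.p14) were found for 7 of the 8 members, with miR-542-3p the exception. Each is written 5′ to 3′ with the seed in capitals, first those of the miR-424 and miR-503 hairpins and then those of miR-450 and miR-542.
miR-424-5p: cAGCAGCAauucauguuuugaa
miR-503-5p: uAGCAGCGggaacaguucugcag
miR-424-3p: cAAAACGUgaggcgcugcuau
miR-503-3p: gGGGUAUUguuuccgcugccagg
miR-450a-5p: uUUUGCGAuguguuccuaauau
miR-450b-5p: uUUUGCAAuauguuccugaaua
miR-542-5p: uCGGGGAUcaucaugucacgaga
The seeds of miR-424-5p and miR-503-5p differ in their last base, and those of miR-450a-5p and miR-450b-5p differ in a single base as well. Over the whole miRNA, miR-450a-5p and miR-450b-5p were identical at 16 of 22 positions, against 12 of 22 for miR-424-5p and miR-503-5p. By the study's methods alignment allowed at most 1 mismatch, fewer than the differing positions of either pair over the whole miRNA. Whether shorter reads of 1 member were counted for the other of its pair was not tested.

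In total RNA the cluster was dominated by 1 arm of each of the 2 upstream hairpins. Levels are given as TMM-scaled CPM, that is, counts relative to a library size corrected for composition. A read covers a whole mature miRNA, and dividing by the length of the 7 sequenced members left their order as it was in both groups. miR-424-3p stood at 847, 847 and 1023 CPM in replicates 1, 2 and 3, and miR-503-5p at 619, 633 and 622 CPM. These 2 held 53.3% ± 3.24 and 36.9% ± 1.98 of the cluster's counts (SD, n = 3).

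miR-450a-5p came next at 62.6, 59.9 and 58.4 CPM in total RNA. miR-542-3p was at 65.8, 60.3 and 47.5 CPM, so that these neighbours in the order overlapped. miR-450b-5p followed at 24.1, 22.6 and 19.1 CPM. The libraries of miR-424-5p, at 19.0, 15.5 and 16.3 CPM, lay just below it without overlap. miR-503-3p was at 9.82, 7.13 and 7.36 CPM, below every library of miR-424-5p. miR-542-5p had 12, 0 and 0 counts, where a count of 0 allows up to 3 counts.

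**Figure D1:**
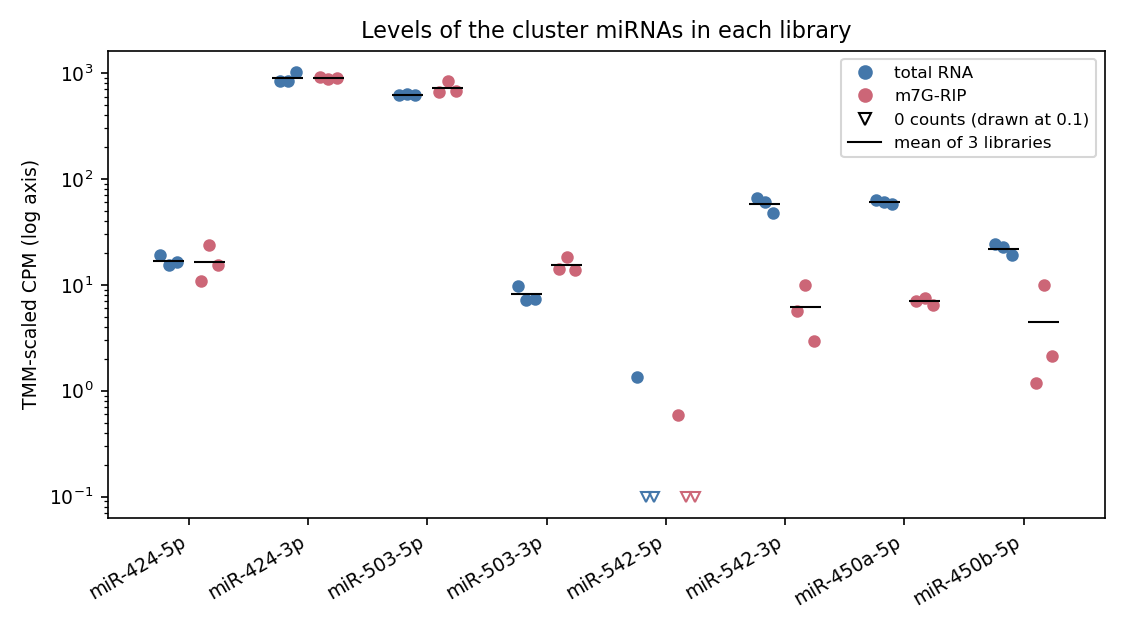
Each point is the TMM-scaled CPM (log axis) of a cluster miRNA in 1 library, blue for total RNA and red for m7G-RIP, with a bar at the mean of 3 libraries (none for miR-542-5p). Open triangles are libraries with 0 counts, drawn at 0.1 CPM. The red points of miR-542-3p, miR-450a-5p and miR-450b-5p lie below all of their blue points, whereas those of miR-424-3p overlap theirs.

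Setting m7G-RIP against total RNA shows which members made up a greater or lesser proportion of m7G-RIP than of total RNA. All miRNAs of the tables were fitted together with edgeR's quasi-likelihood test, and p-values were adjusted over the 620 miRNAs that passed a filter on low counts, with a threshold of 0.05. Of the 8 members, 7 passed the filter and miR-542-5p did not. The tested members of the downstream hairpins were depleted and those of the upstream pair were not. This split by hairpin was made after the values were seen. Of the 7 tested, 3 were depleted, where 29.2% of all tested miRNAs were, and 0 were enriched, where 23.5% were. At an unadjusted p under 0.05 edgeR enriched 0 members too. At an adjusted p under 0.05 DESeq2's Wald test enriched 0 and limma-voom enriched 1. The median log2 ratio was -0.031 over the 7 tested members and -0.074 over all tested miRNAs.

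hsa-miR-450a-5p had 555, 504 and 444 counts in total RNA and 24 counts in each of the 3 m7G-RIP libraries. On the CPM scale it went from 60.3 ± 2.15 to 7.01 ± 0.557 (SD, n = 3). The log2 ratio was -3.10 (SE 0.27, edgeR adjusted p 1.09e-05), an 8.59-fold lower level. The groups were well separated, since the lowest total RNA library stood at 58.4 CPM and the highest m7G-RIP library at 7.53 CPM.

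hsa-miR-542-3p, the survivin-repressing arm, had 583, 507 and 361 counts in total RNA and 19, 32 and 11 in m7G-RIP. The mean level was 57.8 ± 9.40 CPM before and 6.20 ± 3.59 CPM after immunoprecipitation (SD, n = 3). The log2 ratio was -3.23 (SE 0.43, edgeR adjusted p 0.000241), or 9.39-fold lower. Every m7G-RIP library lay below every total RNA library, although the m7G-RIP libraries differed from each other, at 5.60, 10.0 and 2.94 CPM.

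hsa-miR-450b-5p fell from 24.1, 22.6 and 19.1 CPM in total RNA to 1.18, 10.0 and 2.14 CPM in m7G-RIP. The log2 ratio was -2.31 (SE 0.71, edgeR adjusted p 0.0222), the least certain of the 3 depletions. Replicate 2 of m7G-RIP, with 32 counts against 4 and 8, was the high library, and without it the log2 ratio was -3.70. Without m7G-RIP replicate 1 or 3 the ratio was -1.86 or -1.97. The call was lost without total RNA replicate 1 (edgeR adjusted p 0.0566) or 2 (edgeR adjusted p 0.051), where the ratio was -2.36 or -2.39, and with library size alone as the scaling, where it was -1.79 (edgeR adjusted p 0.0545).

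**Figure D2:**
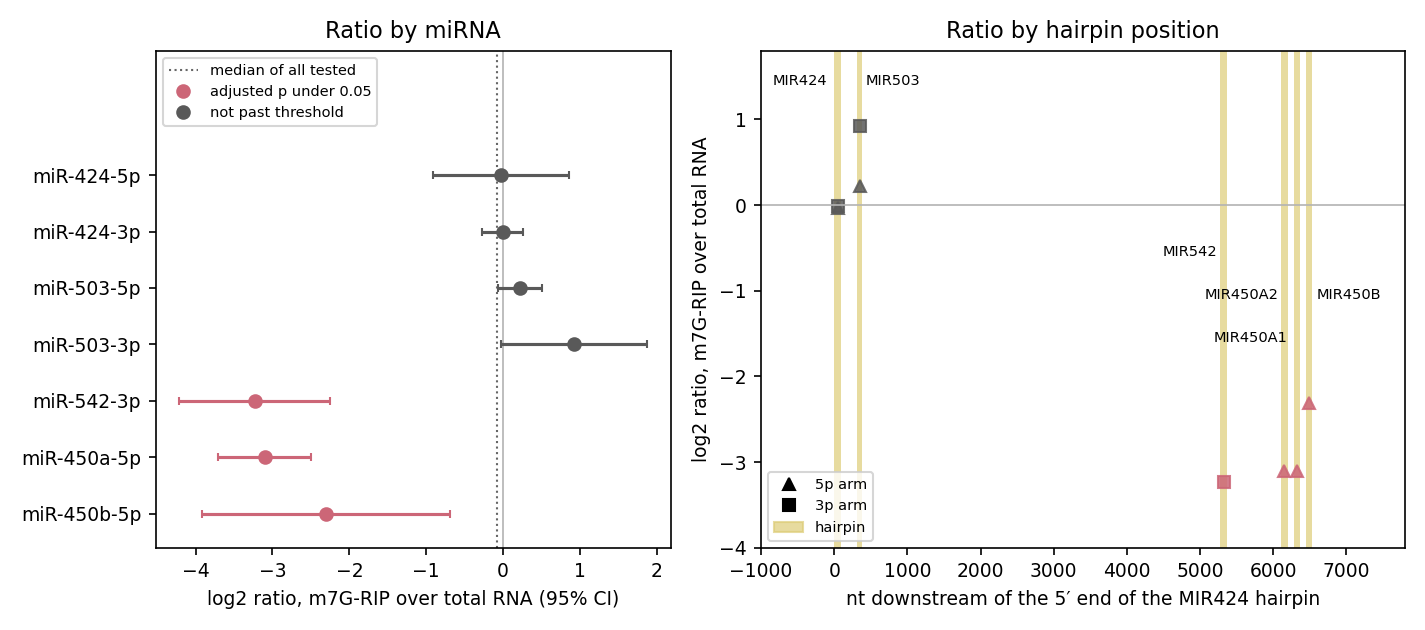
The left panel gives the log2 ratio of m7G-RIP over total RNA with its 95% confidence interval for the 7 tested members, red where the edgeR adjusted p was under 0.05, and the dotted line is the median of all tested miRNAs. The right panel places the same ratios by the midpoint of each hairpin, in nt downstream of the 5′ end of MIR424, with miR-450a-5p drawn at both of its hairpins. The 4 members of MIR424 and MIR503 lie between -0.031 and 0.93 and the 3 members further downstream between -3.23 and -2.31.

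The abundant arms of the upstream hairpins stood in m7G-RIP at about their level in total RNA. hsa-miR-424-3p was at 913, 886 and 903 CPM in m7G-RIP, inside the range of its total RNA libraries. Its log2 ratio was -0.0081 (SE 0.12, edgeR adjusted p 0.956), with a 95% interval from -0.27 to 0.26. miR-503-5p was at 665, 844 and 676 CPM in m7G-RIP, all above the highest total RNA library of 633 CPM. Its log2 ratio was 0.22 (SE 0.13, edgeR adjusted p 0.176), with a 95% interval from -0.067 to 0.51. It was 0.10 without m7G-RIP replicate 2, the highest library, 0.12 when total RNA replicate 1 was left out and 0.13 when replicate 3 was. The excess of miR-503-5p did not pass the threshold.

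The scarce arms of the same hairpins had wider intervals. miR-424-5p was at 10.9, 23.5 and 15.3 CPM in m7G-RIP, on both sides of its total RNA libraries. Its log2 ratio was -0.031 (edgeR adjusted p 0.95), with a 95% interval from -0.91 to 0.85. miR-503-3p was at 14.1, 18.2 and 13.9 CPM in m7G-RIP, above all of its total RNA libraries. Its log2 ratio of 0.93 (SE 0.42) had an edgeR adjusted p of 0.0914 and a 95% interval from -0.025 to 1.88. It was past the threshold with limma-voom (adjusted p 0.0436) and when the fit kept only miRNAs that reached 10 counts in each of the 6 libraries (edgeR adjusted p 0.0463). m7G-RIP libraries lay above total RNA in both arms of miR-503, where 29.5% of all tested miRNAs did so, and below in the 3 depleted members, where 36.5% did.

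Directions near 0 depend on how libraries are scaled, since the amount of RNA recovered is not known. With library size alone in place of TMM, the log2 ratios of all tested miRNAs rose by a median of 0.55, and enriched miRNAs made up 60.5% of all calls against 44.6%. Under that scaling miR-424-3p, miR-503-5p and miR-503-3p were called enriched, with log2 ratios of 0.55, 0.77 and 1.47 (edgeR adjusted p 0.00396, 0.000285 and 0.0117). Relative to that shift miR-424-3p stayed near 0. miR-450a-5p and miR-542-3p stayed depleted under it, with log2 ratios of -2.55 and -2.69.

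Composition within the cluster is free of this scaling, because it compares counts of 1 library with each other. The members of the miR-450 and miR-542 hairpins together held 9.34%, 8.68% and 6.96% of the cluster's counts in total RNA, and 0.893%, 1.54% and 0.711% in m7G-RIP. The mean went from 8.33% ± 1.23 to 1.05% ± 0.433 (SD, n = 3). All m7G-RIP libraries were below all total RNA libraries. The difference is given without a test, as this grouping was made after the values were seen.

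Member by member, the share of miR-450a-5p went from 3.57% ± 0.280 to 0.418% ± 0.0203 of the cluster's counts and that of miR-542-3p from 3.43% ± 0.701 to 0.362% ± 0.189 (SD, n = 3). The share of miR-450b-5p went from 1.30% ± 0.211 to 0.255% ± 0.265. For miR-503-5p it was 6.34 percentage points higher in m7G-RIP, at 43.3% ± 3.19, and for miR-503-3p it went from 0.480% ± 0.101 to 0.915% ± 0.0840. For each of these 5 shares the two-sided exact permutation test gave p = 0.1, the lowest value possible with 3 libraries a group. Shares of the members sum to the whole cluster, so a fall in some raises others, and these results are not independent. The shares of miR-424-3p and miR-424-5p overlapped between the groups, with differences of 0.52 and -0.024 percentage points (exact permutation p = 1 for each). The cluster as a whole took 0.140% ± 0.00788 of all counts in total RNA and 0.203% ± 0.00725 in m7G-RIP (SD, n = 3, exact permutation p = 0.1), from 13641 to 14606 and from 5488 to 6049 counts. Unlike the shares within the cluster, this share follows library size as the scaling. In TMM-scaled CPM the members summed to 1648, 1645 and 1794 in total RNA and 1617, 1799 and 1619 in m7G-RIP, and the groups overlapped.

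**Figure D3:**
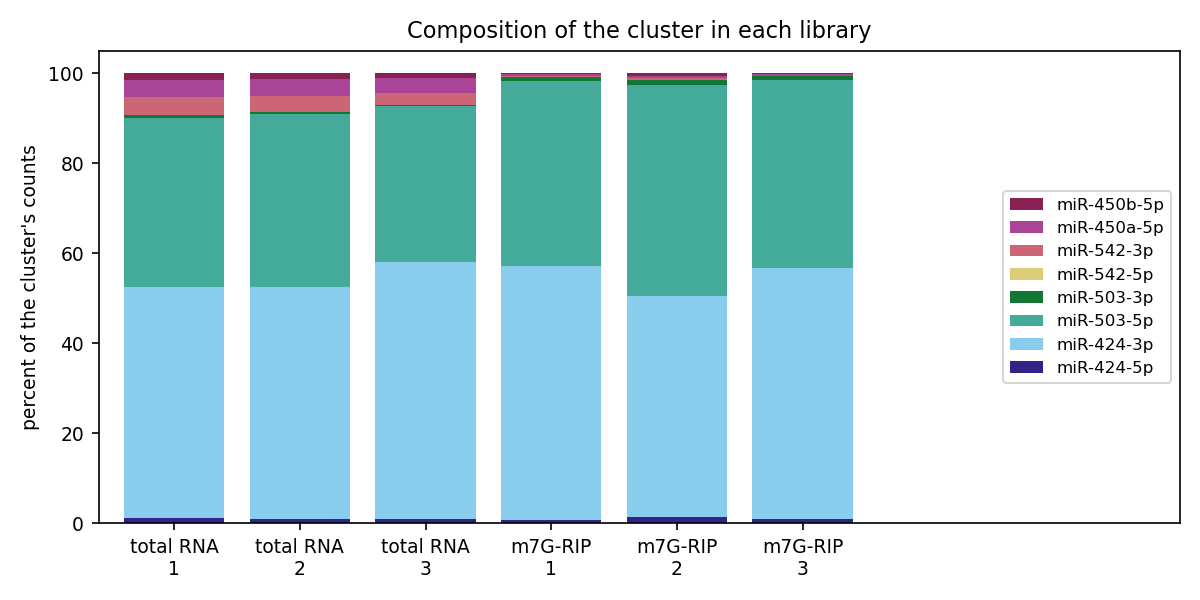
Stacked bars show the percent of the cluster's counts held by each member in each of the 6 libraries, so that every bar sums to the whole cluster. The bands of miR-542-3p, miR-450a-5p and miR-450b-5p at the top shrink from a mean of 8.33% in total RNA to 1.05% in m7G-RIP.

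Whether the arms of a hairpin were recovered alike was asked with the log2 ratio of 5p to 3p counts in each library, which is also free of scaling. It was tested with limma over the 180 hairpins whose arms each had a mean of at least 5 counts. Of these hairpins, 31.7% shifted their arm ratio at an adjusted p under 0.05. Neither of the 2 member hairpins tested did, by limma (0), by limma at an unadjusted p under 0.05 (0) or by edgeR's diffSpliceDGE (0), and 0 of them had all m7G-RIP libraries above total RNA, as 27.8% of the 180 did.

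The counts of these hairpins leaned to opposite arms, with the 3p arm in excess for miR-424 and the 5p arm for miR-503. Which arm served as the guide was not tested. The miR-424 ratio was -5.48, -5.77 and -5.97 on the log2 scale in total RNA and -6.37, -5.22 and -5.87 in m7G-RIP, which overlap. The shift was -0.085 (SE 0.42, limma adjusted p 0.917), with a 95% interval from -1.08 to 0.91. The 5p arm made up 1.85% ± 0.315 of the hairpin's counts in total RNA and 1.81% ± 0.716 in m7G-RIP (SD, n = 3).

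The miR-503 ratio was 5.97, 6.46 and 6.39 on the log2 scale in total RNA and 5.54, 5.52 and 5.59 in m7G-RIP. All m7G-RIP libraries lay below, as they did for 20.6% of the hairpins tested. The shift was -0.72 (SE 0.39, limma adjusted p 0.22), with a 95% interval from -1.66 to 0.21, and the exact permutation p was 0.1. The 3p arm of miR-542 was the only abundant one, and with 12, 0 and 0 counts of miR-542-5p in total RNA and 2, 0 and 0 in m7G-RIP a shift of that hairpin was not detectable at this depth.

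**Figure D4:**
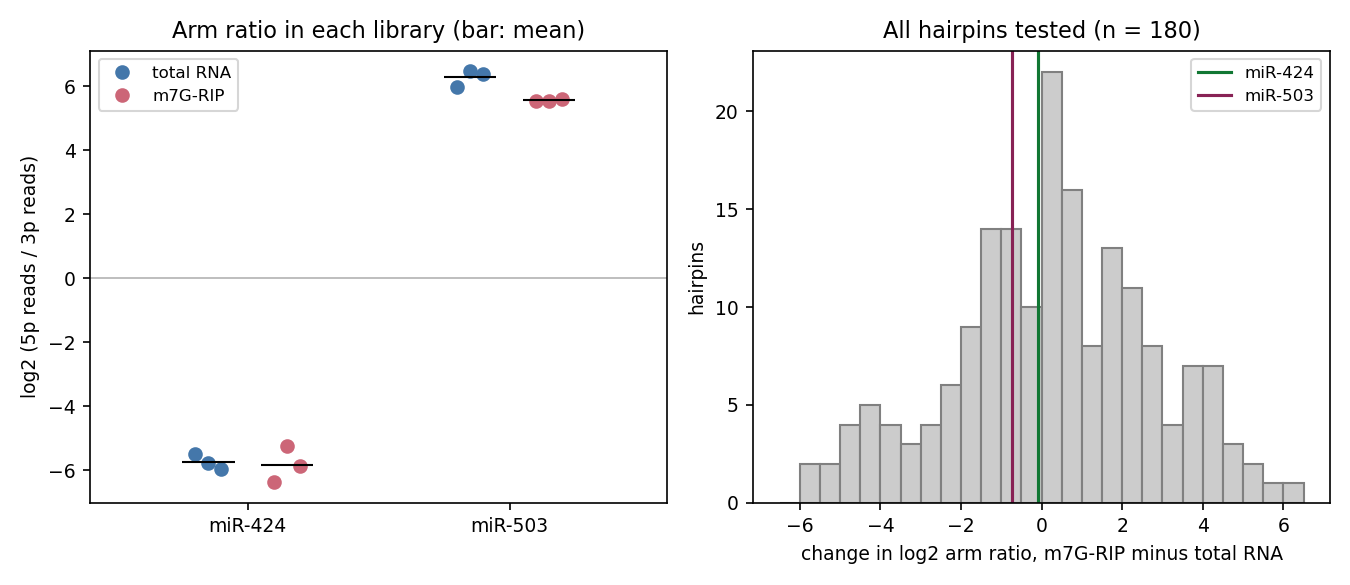
The left panel shows the log2 ratio of 5p to 3p reads of miR-424 and miR-503 in each library, with a bar at the mean of 3. The right panel is a histogram of the change in that ratio, m7G-RIP minus total RNA, over the 180 hairpins tested. The lines for miR-424 at -0.085 and miR-503 at -0.72 lie inside the distribution, whose median is 0.26.

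Members with like seeds were then compared within libraries. The log2 ratio of miR-424-5p to miR-503-5p was -5.21 ± 0.167 in total RNA and -5.51 ± 0.381 in m7G-RIP (SD, n = 3), and the difference of -0.30 had an exact permutation p of 0.3. Without m7G-RIP replicate 1 that difference was -0.097 and without replicate 2 it was -0.48. That of miR-450a-5p to miR-450b-5p was 1.46 ± 0.129 in total RNA and 1.19 ± 1.46 in m7G-RIP (exact permutation p = 0.9). Its m7G-RIP values of 2.44, -0.41 and 1.53 were spread by the high miR-450b-5p count of replicate 2, without which the difference was 0.52 in place of -0.27.

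The seed of miR-424-5p is shared with other miRNAs, which were looked at beside it. Of 7 others of the miR-15/16 group in the tables, 4 were tested, of which 1 was enriched and 0 were depleted, against 23.5% and 29.2% of all tested miRNAs. miR-16-5p, the most abundant of them, went from 482, 498 and 381 CPM in total RNA to 622, 1140 and 775 CPM in m7G-RIP, and its log2 ratio was 0.90 (edgeR adjusted p 0.00745). The others did not pass, with miR-15b-5p at -0.81, miR-15a-5p at -0.34 and miR-195-5p at -0.71 (adjusted p by edgeR 0.0966, 0.699 and 0.513). miRNAs with 1 seed thus had values on both sides of 0, with miR-424-5p at -0.031 between them.

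The other mature arms of the same hairpins were scarce. miR-450a-2-3p had 79, 91 and 99 counts in total RNA and 25, 8 and 9 in m7G-RIP, which scaled to a difference of -1.41 in log2 CPM (SE 0.65, edgeR adjusted p 0.0947). All of its m7G-RIP libraries lay below those of total RNA, but it did not pass the threshold. miR-450a-1-3p had 31, 24 and 5 counts in total RNA and 0 in each m7G-RIP library. Its mean was at least 2.67-fold lower when 3 counts per library are taken as the floor. That bound does not hold for total RNA replicate 3, whose 0.657 CPM lay below the mean m7G-RIP floor of 0.876 CPM. miR-450b-3p had 0 counts in all 6 libraries.

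Since m7G is a modified G, the G content of the mature members was set beside their ratios. Among the 557 tested miRNAs with a RefSeq sequence (89.8%), those richer in G had higher log2 ratios (Pearson r = 0.410, Spearman rho = 0.436). This is a description across miRNAs, which share libraries and depth and are not independent replicates. Pearson's r was -0.091 for the share of C, -0.212 for A and -0.196 for U.

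Among the 4 arms of the upstream hairpins, the estimated ratio was higher in those with more G. The confidence intervals of these 4 ratios, given above, all overlapped, and none of the arms was called by edgeR. The values therefore cannot establish an order by G content, and the arms of miR-424 were the closest. miR-503-3p, with 9 G of 23 bases and a run of 4, had the highest log2 ratio of 0.93. miR-503-5p had 8 G and a ratio of 0.22. miR-424-3p had 6 G and a ratio of -0.0081 (SE 0.12), and miR-424-5p had 4 G and a ratio of -0.031 (SE 0.39). Without m7G-RIP replicate 1 miR-424-5p was at 0.20, above miR-424-3p at -0.018. miR-450a-5p and miR-450b-5p had 4 and 3 G and ratios of -3.10 and -2.31. The order did not extend to this pair, in which the member with more G had the lower ratio, nor across the hairpins, since miR-450a-5p and miR-424-5p had equal G counts.

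Compared with other tested miRNAs of equal G count, the members were not at the extremes. Those with 4 G had a median log2 ratio of -1.09 (62 miRNAs), of which 21.0% lay below miR-450a-5p and 75.8% below miR-424-5p. Those with 3 G had a median of -1.04 (42 miRNAs), and 31.0% lay below miR-450b-5p. For miR-424-3p, miR-503-5p and miR-503-3p the medians at their own G counts were -0.38, 0.35 and 1.47. The longest run of G was looked at over all tested miRNAs with a sequence, members included. The median was -0.59 for runs of 1, -0.51 for runs of 2, 0.20 for runs of 3 and 1.66 for runs of 4 or more.

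**Figure D5:**
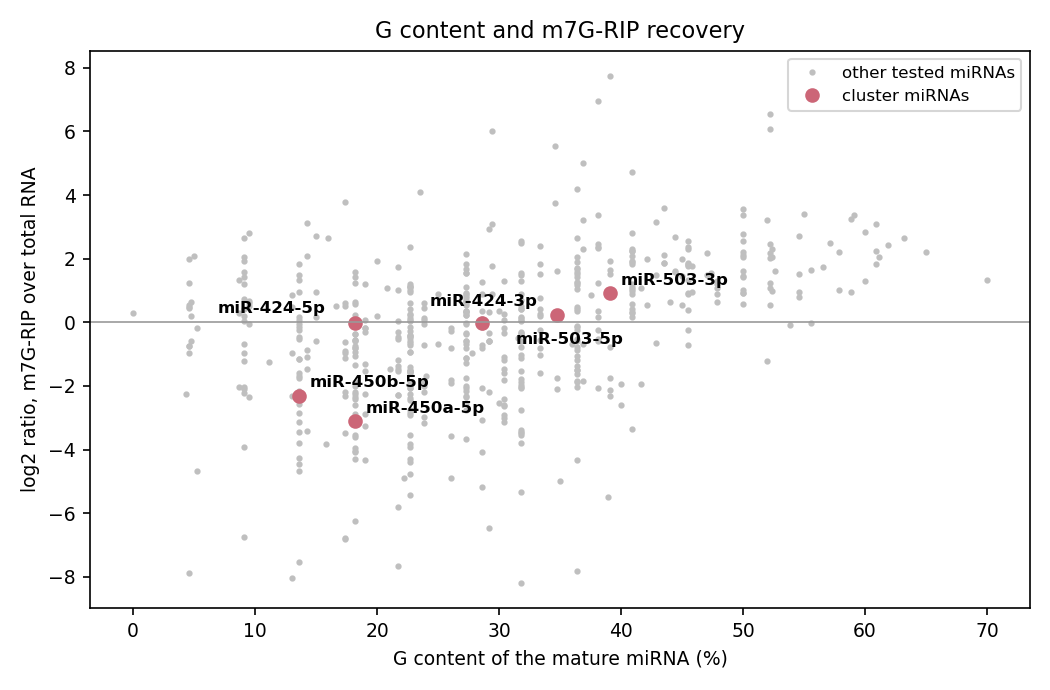
Each point is a tested miRNA with a RefSeq sequence, with its percent of G on the x axis and the log2 ratio of m7G-RIP over total RNA on the y axis, and the 6 cluster members with a sequence are in red. Members run from miR-450b-5p and miR-450a-5p at the lower left to miR-503-3p at 0.93, inside the cloud of the other miRNAs (Pearson r = 0.410 over 557).

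The miRNAs closest to the abundant members in level over the 6 libraries were sought by Euclidean distance in log2 CPM. For miR-424-3p these were miR-27b-5p, miR-3615 and miR-27a-5p, at distances of 0.47, 0.75 and 0.78. For miR-503-5p they were miR-3615, miR-197-3p and miR-484, at distances of 0.63, 0.89 and 0.91.

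The libraries held from 9155690 to 10753443 counts in total RNA and from 2649238 to 3106556 in m7G-RIP. Between replicates the chi-square over its degrees of freedom was 22.2 to 112, beyond sampling noise. Every library counted as a sample of its own, but this value cannot tell separate cultures from technical libraries. As a check of the cell label, all 5 epithelial markers of the miR-200 family were counted, with sums of 528 to 560 CPM for total RNA libraries and 217 to 280 CPM for m7G-RIP. Of 5 haematopoietic markers, miR-142-3p, miR-142-5p and miR-223-3p were at 0 in all libraries and 2 had counts. Their sums were 0.113 to 0.475 CPM in total RNA libraries and 0 to 1.57 CPM in m7G-RIP. The hepatocyte miR-122-5p was at 0 in all libraries. Summed muscle markers were at 9.07 to 11.8 CPM in total RNA libraries and ranged from 0.535 to 117 CPM among m7G-RIP libraries, and summed neuron markers at 515 to 621 and 93.7 to 130 CPM. The culture text of the m7G-RIP samples describes medium for Caco-2, an intestinal line. The intestinal miR-192-5p, miR-194-5p and miR-215-5p summed to between 21592 and 22196 CPM for total RNA and between 2907 and 3181 CPM for m7G-RIP. These lists do not tell the lines apart, and the part of that label in the results was not tested. A difference in culture between the groups could not be told apart from the immunoprecipitation.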

How the data were processed

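The authors deposited raw read counts per mature miRNA for 3 total RNA and 3 m7G-RIP libraries (NEBNext small RNA kit). Per the methods, Trimmomatic removed adapters, end-to-end alignment to GRCh38 allowed at most 1 mismatch and 10 loci, and reads were counted with featureCounts on miRBase 22. The methods name STAR as the aligner and the submitters' processing notes name Bowtie2. How multi-mapping reads were counted is not given in the sources used here, which bears on miR-450a-5p. Groups and replicate numbers were taken from sample titles.

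Counts were tested over the whole table with edgeR 4.0.16 (R 4.3.3; TMM, default expression filter, robust quasi-likelihood, Benjamini-Hochberg), and arm ratios (pseudocount 0.5) with limma 3.58.1 (robust, trend on the scarcer arm). Standard errors were the log2 ratio divided by the root of F. Shares and seed-pair ratios were tested by exact permutation of the libraries (two-sided). The code was tested on simulated counts. Reads carry no molecular identifiers and include PCR copies, and the limits given for low counts therefore hold for counting error alone. Members, lists and tests were chosen with earlier results of these data known. Every member was named, with the other arms of its hairpins, up to 4 further miR-15/16 miRNAs by level, and the 3 nearest miRNAs to miR-503-5p and miR-424-3p. Alternatives covered scaling, filters, tools (DESeq2 1.42.0), pseudocounts, the replicate block, and the omission of single libraries.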

Additional observations from a re-analysis of the deposited data

How the results depend on the processing

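The depletion of miR-450a-5p and miR-542-3p held its direction and its call under every alternative run, and 3 members were depleted throughout, except 2 when scaled by library size only, 2 when each library had to reach 10 counts (which leaves miR-450b-5p untested) and 2 to 3 without 1 library. Enriched members numbered 3 when scaled by library size only, 1 when each library had to reach 10 counts, 1 with limma-voom and 0 without any 1 library. Under that library-size scaling miR-424-5p reversed to 0.51 and miR-424-3p to 0.55, miR-503-5p was called at 0.77 and miR-503-3p at 1.47, and miR-450b-5p lost its call at -1.79; this scaling moved all miRNAs by a median of 0.55. miR-503-3p was also called when each library had to reach 10 counts (0.86) and with limma-voom (0.92), and the cause was not tested. miR-503-5p reversed to -0.058 with no filter on low counts, which moved the median of all miRNAs by -0.28. miR-424-3p turned to 0.00067 with DESeq2 size factors and 0.00070 with DESeq2's Wald test. Without 1 library the log2 ratio ran from -0.37 to 0.20 for miR-424-5p (above 0 without m7G-RIP replicate 1 or 3), from -0.14 to 0.010 for miR-424-3p (above 0 without total RNA replicate 3 or m7G-RIP replicate 2), from 0.10 to 0.28 for miR-503-5p, and from -3.70 to -1.86 for miR-450b-5p. The miR-424 arm shift ran from -0.38 to 0.19, reversing without total RNA replicate 1 or m7G-RIP replicate 1, and the ratio of miR-424-5p to miR-503-5p from -0.48 to -0.097. Deviations from the group means showed no pairing by number, with correlations of -0.043, -0.10 and 0.064 for numbers 1, 2 and 3. Spread between m7G-RIP libraries could hide a pairing, so these values cannot decide whether libraries of 1 number shared their RNA. With the replicate block 0 members were enriched and 3 depleted, and the block changed no call. miR-450a-5p stood at -3.10, miR-542-3p at -3.35 and miR-450b-5p at -2.78 under it. The m7G-RIP counts of miR-450b-5p (4, 32 and 8) and miR-542-5p limit what depth can show.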
